A study of Mus musculus with 6 samples.

Results

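The transcription factors that set and hold the identity of pancreatic islet cells were compared between islets whose beta cells lack the von Hippel-Lindau gene and control islets. The genes are a named set: Pdx1, Nkx6-1, Nkx2-2, Neurod1, Pax6, Foxa2, Rfx6, Isl1 and Insm1. Of these 9 genes, 8 had at least 1 probe set (a group of short probes for a transcript) that the array's annotation assigns to a single gene symbol, and Rfx6 was not analysed here. They are 8 of the 18193 genes so annotated, and are read by 16 of 45037 probe sets.

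The series holds 6 Affymetrix mouse arrays, 1 per batch of isolated islets. There were 3 Vhlh knockout batches, in which floxed Vhlh (fl/fl) is cut by Cre recombinase under the rat insulin 2 promoter (RIP2-Cre), and 3 control batches, whose own alleles the labels do not spell out. In both genotypes batch 1 was from male mice aged 26 weeks, batch 2 from female mice aged 20 weeks and batch 3 from male mice aged 18 weeks, per the labels. Cre acts in insulin-expressing cells, so alpha, delta, vessel and stromal cells of a knockout islet keep the gene, and how many mice a batch pools is not stated in the labels. Each array gives whole-islet signal, so fewer cells of a type and less RNA per cell cannot be told apart. A p-value here reflects the variation from batch to batch, and within a genotype the batches also differ in age and recorded sex.

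Islets are endocrine clusters in which beta cells secrete insulin, alpha cells glucagon and delta cells somatostatin. Their cells are specified and maintained by a network of DNA-binding proteins that regulate each other and the hormone genes. Von Hippel-Lindau protein, the product of Vhlh (Vhl in the annotation), marks the alpha subunits of hypoxia-inducible factor (HIF) for degradation in oxygen, so cells without it keep HIF active. The comparison addresses whether the transcripts of this network differ when that brake is missing from beta cells.

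HIF binds short DNA stretches around the letters ACGTG or GCGTG, and these were looked up on both strands in the 250 bases before each RefSeq transcription start (build GRCm38.p6). The table held 11 such windows for 8 of the 9 genes, and Insm1 had no entry. The core letters occurred in 9 of the 11 windows, covering 7 genes, whereas 38.6% of all 32851 windows hold them. GC content had a median of 56.4% in the 11 windows and 52.4% in all windows. The 60 bases around the core nearest to each start are shown because they place the letters of the HIF core in the genes that are compared. Capitals mark the core as read on the gene's strand, which reads CACGC where GCGTG lies on the other strand. In Pdx1 and Nkx2-2 it is the palindrome CACGTG, which also has the letters of the E-box CANNTG that basic helix-loop-helix factors bind.
Pdx1, chr5:147270019-147270078, plus strand: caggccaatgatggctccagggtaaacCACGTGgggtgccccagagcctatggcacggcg
Nkx6-1, chr5:101664861-101664920, minus strand: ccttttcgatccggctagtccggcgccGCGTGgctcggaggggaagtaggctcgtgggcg
Nkx2-2, chr2:147186543-147186602, minus strand: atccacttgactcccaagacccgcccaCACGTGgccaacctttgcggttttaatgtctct
Neurod1, chr2:79456715-79456774, minus strand: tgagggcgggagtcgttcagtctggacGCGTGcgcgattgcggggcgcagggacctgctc
Pax6, first start, chr2:105668833-105668892, plus strand: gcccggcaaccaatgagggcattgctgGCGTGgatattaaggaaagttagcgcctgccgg
Pax6, other start, chr2:105682390-105682449, plus strand: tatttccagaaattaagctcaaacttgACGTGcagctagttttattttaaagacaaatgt
Foxa2, chr2:148045549-148045608, minus strand: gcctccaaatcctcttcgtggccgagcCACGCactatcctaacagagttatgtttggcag
Foxa2, a further start, chr2:148046139-148046198, minus strand: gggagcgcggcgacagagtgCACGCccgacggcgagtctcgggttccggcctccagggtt
Isl1, chr13:116309851-116309910, minus strand: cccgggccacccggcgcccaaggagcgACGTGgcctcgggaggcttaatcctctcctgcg

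The core lay 51 bases before the start in Pdx1 and 111 bases before it in Neurod1. The remaining Foxa2 window and the Rfx6 window held neither core. E-box letters occurred in 6 of the 11 windows, and 66.2% of all windows hold them, while the homeodomain letters TAATTA occurred in 0 of the 11 and in 4.84% of all windows. A match of letters describes the window and is not evidence of binding, and its absence says nothing of a factor.

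On the arrays, 0 of the 8 genes differed between genotypes past an adjusted p of 0.05 (limma across 11609 genes, Benjamini-Hochberg), and 0.0172% of all genes tested did. With the pair number as a block it was again 0 of 8, where 0.0517% of all genes passed. The count at an unadjusted limma p under 0.05 was also 0 of 8, where 2.58% of all genes passed. Knockout means were lower for 6 of the 8 genes, against 50.0% of all genes, with log2 differences between -0.49 and 0.23. Their median log2 difference was -0.26, and that of all genes tested was 0.00. That median was -0.090 without knockout 2 and -0.099 without control 2. All 8 genes were bright enough to be tested on the probe set chosen to represent them, and 14 of the 16 probe sets were. When every probe set was tested on its own, 0 of the 14 passed, against 0.0201% of all 19853 probe sets tested, and 10 of the 14 had a lower knockout mean, against 51.9% of all.

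**Figure D1:**
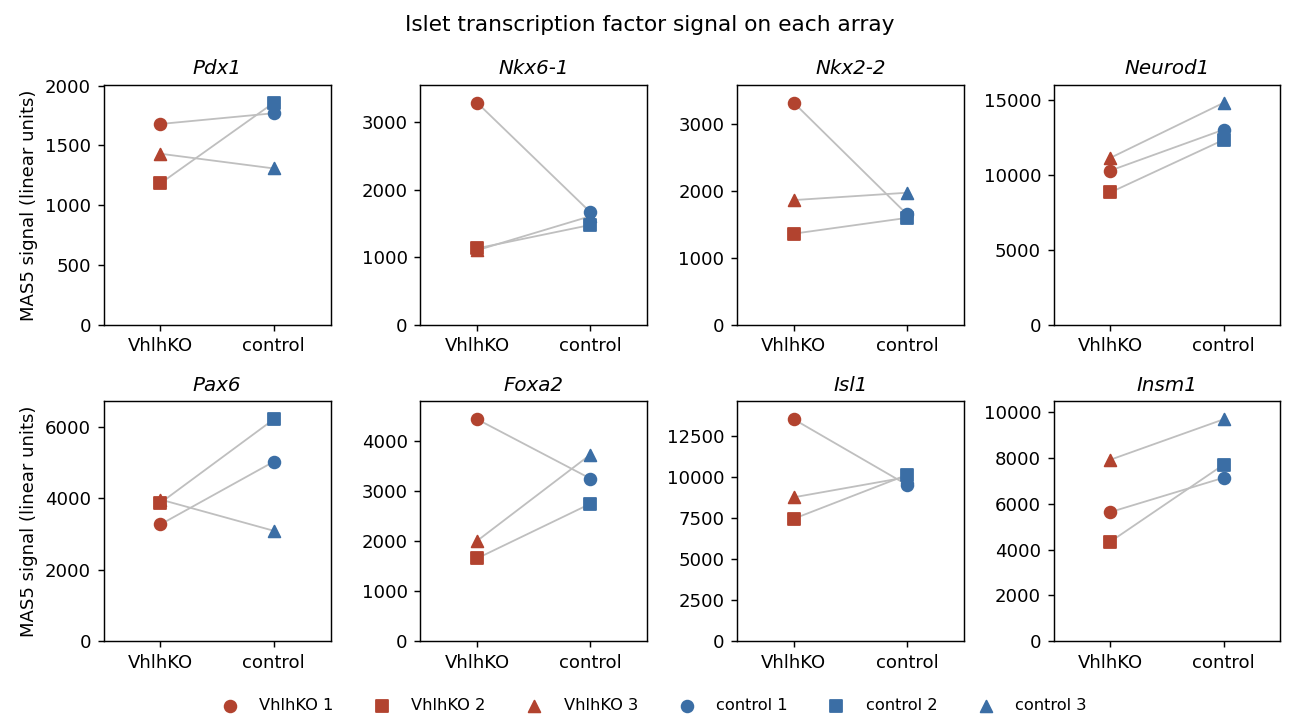
MAS5 signal (linear units, vertical axes from 0) of the representative probe set of each of the 8 genes on the 3 Vhlh knockout arrays (left, red) and the 3 control arrays (right, blue), with grey lines joining arrays of the same number. The groups separate for Neurod1, and knockout 1 stands above the other arrays for Nkx6-1, Nkx2-2, Foxa2 and Isl1.

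Neurod1 encodes a basic helix-loop-helix factor that acts downstream of Neurog3 and activates the insulin genes together with E proteins. Its representative probe set gave 10310, 8849 and 11160 signal units on knockout arrays 1, 2 and 3, against 13050, 12370 and 14850 on control arrays 1, 2 and 3. Every knockout value lay below every control value, which held for 1 of the 8 genes and for 2.77% of all genes. The log2 difference was -0.41 (SE 0.22, 95% interval -0.91 to 0.08), a knockout level of 0.752 times control, with adjusted p 0.9998 in limma. The difference was -0.34, -0.48 and -0.41 in the pairs numbered 1, 2 and 3. A second Neurod1 probe set gave 2739, 3776 and 4398 on knockout arrays, against 4253, 6539 and 5636 on control arrays. There the knockout was lower in each pair as well, by log2 differences of -0.64, -0.79 and -0.36, although knockout 3 exceeded control 1.

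Insm1 encodes a zinc-finger repressor needed for endocrine differentiation, and it too was lower on the knockout array of every pair. Its signals were 5644, 4351 and 7931 on knockout arrays, against 7146, 7720 and 9699 on control arrays. The groups overlapped, since knockout 3 exceeded controls 1 and 2. The log2 difference was -0.49 (SE 0.29, 95% interval -1.13 to 0.16, limma adjusted p 0.9998), with -0.34, -0.83 and -0.29 in the 3 pairs. The second Insm1 probe set had 1765, 1476 and 1774 on knockout arrays and 2624, 2680 and 1545 on control arrays, a log2 difference of -0.41 whose pair numbered 3 went the other way at 0.20. Neurod1 and Insm1 were the 2 of 8 genes lower in every pair on the representative probe set, where 11.3% of all genes were. With the pair number as a block, these 2 of the 8 genes had an unadjusted limma p under 0.05, as did 5.03% of all genes. The blocked SE was 0.17 for Neurod1 and 0.20 for Insm1, and both had a blocked adjusted p of 0.9646.

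**Figure D2:**
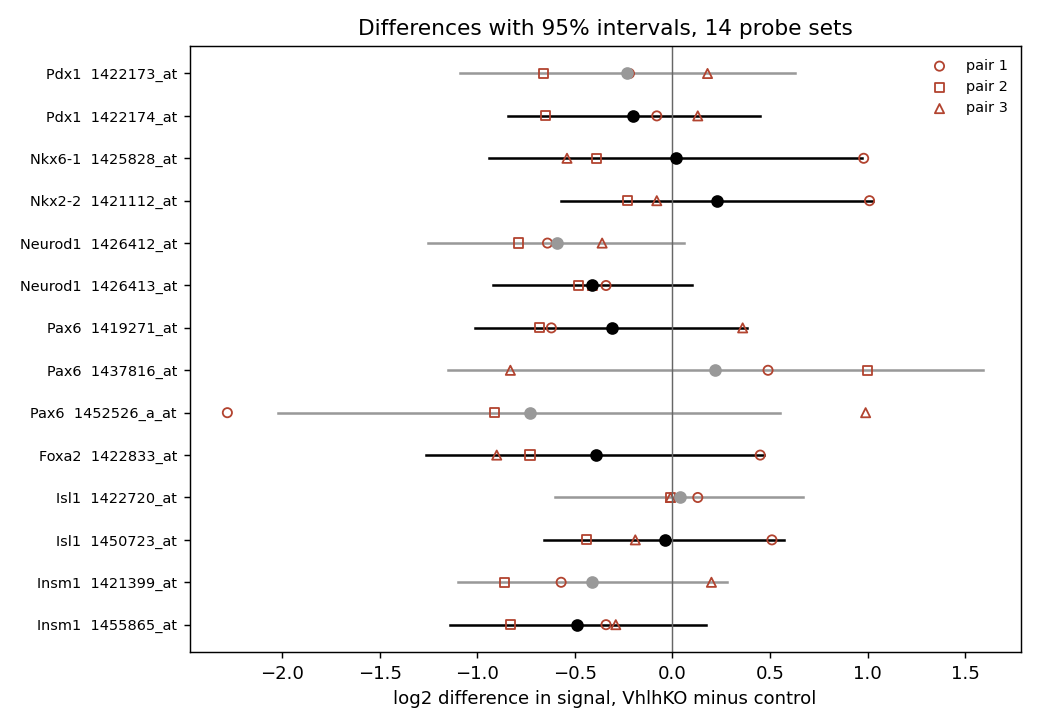
Log2 difference in signal, Vhlh knockout minus control (horizontal axis), for the 14 probe sets bright enough to test, with limma's 95% intervals as lines. Black marks representative probe sets, grey the other ones, and open red symbols the 3 same-numbered pairs. The intervals come from the fit without the pair number as a block, so they do not use the pairing. All 14 of these intervals include 0, and both Neurod1 probe sets have every pair below 0.

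Pdx1, the homeodomain factor without which no pancreas forms and which in adult beta cells activates insulin and glucose transport genes, had a slightly lower knockout mean. Its signals were 1679, 1182 and 1430 on knockout arrays, against 1769, 1857 and 1307 on control arrays. The ranges overlapped, with knockout 2 lowest of the 6 arrays. The log2 difference was -0.20 (SE 0.28, 95% interval -0.83 to 0.43), and the other Pdx1 probe set differed by -0.23, with 540.4, 271.5 and 342.9 on knockout arrays and 628.9, 427.5 and 303.4 on control arrays. Both probe sets were lower in the pairs numbered 1 and 2 and higher in the pair numbered 3.

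Nkx6-1 and Nkx2-2 are homeodomain factors that keep beta cells from taking on the programmes of other islet cells. Nkx6-1 had 3289, 1131 and 1103 signal units on knockout arrays, against 1665, 1478 and 1608 on control arrays. Knockout 1 was thus the highest of the 6 arrays and the other two knockouts the lowest, while the controls lay close together. The log2 SD was 0.90 in knockouts and 0.09 in controls (n = 3 each), and the log2 difference was 0.02 with a 95% interval from -0.93 to 0.96. Without knockout 1 it was -0.50. Nkx2-2 had 3312, 1358 and 1859 on knockout arrays and 1645, 1594 and 1969 on control arrays, a log2 difference of 0.23 (SE 0.35). Here again knockout 1 stood above the other 5 arrays, and without it the Nkx2-2 difference was -0.12.

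Foxa2, a forkhead factor that opens chromatin and activates Pdx1, had 4433, 1655 and 2004 on knockout arrays, against 3247, 2747 and 3729 on control arrays. Knockout 1 was the highest array and knockouts 2 and 3 the lowest, as for Nkx6-1. The log2 difference was -0.39 (SE 0.38, 95% interval -1.24 to 0.46), and it was -0.82 without knockout 1.

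Isl1, a LIM-homeodomain factor of all islet endocrine cells, had 13540, 7471 and 8779 on knockout arrays and 9535, 10150 and 10010 on control arrays. Its log2 difference of -0.04 had a 95% interval from -0.65 to 0.56. A second Isl1 probe set gave 2805, 2975 and 2083 on knockout arrays and 2563, 3000 and 2100 on control arrays. On that probe set knockout 1 did not stand apart, and the pair differences were 0.13, -0.01 and -0.01, so the excess on knockout 1 was not seen by both Isl1 probe sets.

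Pax6 encodes a paired-domain and homeodomain factor that activates glucagon, insulin and other hormone genes. Its representative probe set gave 3272, 3874 and 3969 on knockout arrays, against 5030, 6217 and 3093 on control arrays. The knockouts lay close together and inside the control range, and the log2 difference was -0.31 (SE 0.30, limma adjusted p 0.9998). The other Pax6 probe sets did not point one way. One differed by -0.73, with 226.2, 658.1 and 743.9 on knockout arrays and 1101, 1234 and 373.5 on control arrays, another by 0.22, and 2 were too dim to test. On 4 of the 5 Pax6 probe sets the knockout was lower in the pairs numbered 1 and 2 and higher in the pair numbered 3, and the fifth showed the opposite.

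**Figure D3:**
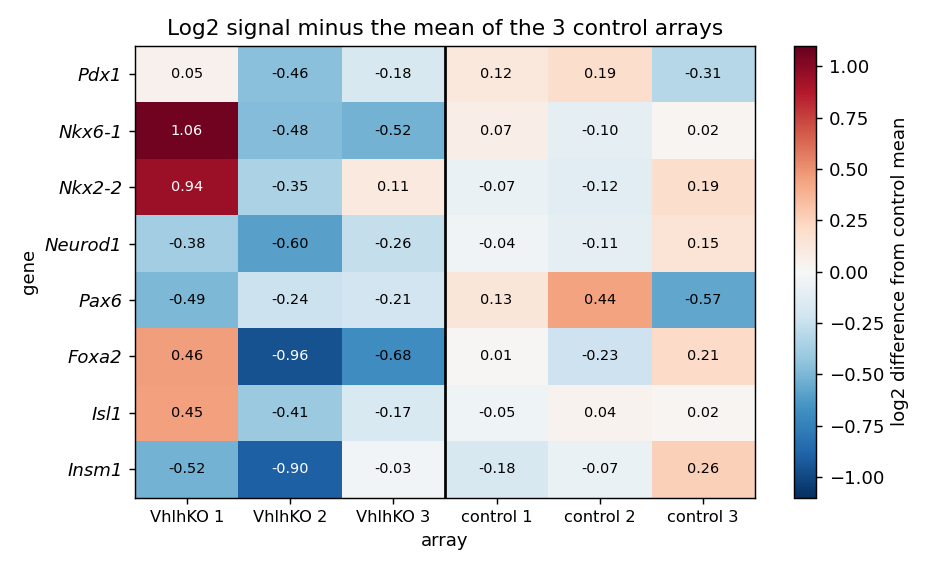
Log2 signal minus the mean of the 3 control arrays for the 8 genes (rows) on each array (columns, Vhlh knockout left of the black line), with red for higher and blue for lower. All 8 genes are below the control mean on knockout 2 and 7 of 8 on knockout 3, whereas on knockout 1 values run from -0.52 to 1.06.

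The 3 knockout arrays did not share one pattern. On knockout 2 all 8 genes were below the control mean, by a median of -0.47 on the log2 scale, and on knockout 3 there were 7 of 8, with a median of -0.20. On knockout 1 only Neurod1, Pax6 and Insm1, 3 of 8, were below it, and the median was 0.25. These counts and medians by array were not computed over all genes here, so they are not set against an array-wide share. Knockout 1 was the highest of the 6 arrays for 4 of the 8 genes and for 20.6% of all genes tested. Knockout 2 was the lowest for 6 of the 8 genes and for 17.5% of all genes. The log2 SD was larger in knockouts than in controls for 6 of the 8 genes, and for 57.5% of all genes. The median SD over the 8 genes was 0.44 in knockouts and 0.19 in controls, and over all genes it was 0.42 in knockouts and 0.36 in controls. Controls 1, 2 and 3 had medians of -0.01, -0.09 and 0.09 over the 8 genes, as deviations from their own mean. Control 1 came from mice of the same age and recorded sex as knockout 1. Whether age or sex bears on the knockout 1 values was not tested.

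Over the 6 arrays, Foxa2 and Isl1 followed the mean of the other 7 genes most closely on the representative probe sets, each with a Pearson r of 0.90. The second Isl1 probe set, on which knockout 1 did not stand apart, was not part of this correlation. Pdx1 had r of 0.67, Nkx6-1 of 0.68, Nkx2-2 of 0.59, Neurod1 of 0.47 and Insm1 of 0.30, while Pax6 had r of -0.18. Outside the 8 genes, the 5 profiles most like their mean were those of Celsr2 (r = 0.990), Mcf2l (0.987), Smim1 (0.986), Ap1b1 (0.985) and Proser1 (0.984). Mcf2l, for example, had 4690, 2224 and 2788 on knockout arrays and 3702, 3914 and 3518 on control arrays. All these correlations rest on 6 arrays, with most of the spread on the 3 knockouts, and are given as a description. The 5 outside profiles were picked as the highest among the 11609 tested genes, leaving out the 8.

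The labels and the make-up of the samples were read beside these values. Vhl had 343.6, 358.3 and 467.4 on knockout arrays and 456.6, 638.7 and 838.8 on control arrays, lower in each pair but with groups that overlapped (log2 difference -0.70, limma adjusted p 0.9998). With the pair number as a block, its limma p was 0.0231 unadjusted and 0.9117 adjusted. In that fit 5.03% of all genes had an unadjusted p under 0.05. Whether the probes lie in the deleted part was not analysed here. Defining islet transcripts were bright on all 6 arrays, including Ins2 with at least 11540 and Gcg with at least 31890 signal units, and the summed signal of the 5 measured endocrine markers of 6 listed ranged from 131450 to 212997 in knockouts and from 153264 to 166199 in controls. Acinar markers, from exocrine tissue beside the islets, were measured for 16 of 21 listed genes. Their summed signal was 587303, 807593 and 13225 on knockouts 1, 2 and 3, against 546183, 635922 and 132505 on controls 1, 2 and 3, with no marker at 0. When the mean acinar log2 signal entered the fit as a covariate, the log2 difference was -0.46 for Neurod1 and -0.61 for Insm1. Both had a limma adjusted p of 0.9997. Without adjustment the limma p was 0.0378 for Neurod1, 0.0204 for Insm1 and at least 0.381 for the others of the 8 genes. The share of all genes under 0.05 in that fit was not counted here. Endothelial markers, 10 of 10 measured, summed to between 11124 and 15545 in knockouts and between 8879 and 9807 in controls. Fibroblast and matrix markers, also 10 of 10, summed to between 6735 and 22184 in knockouts and between 3681 and 7164 in controls. Neural and Schwann markers, 8 of 10 measured, summed to between 1310 and 3932 in knockouts and between 835 and 1734 in controls, and leukocyte markers, 10 of 10, to between 4811 and 7962 in knockouts and between 3591 and 8018 in controls. Duct markers, 9 of 10 measured, summed to between 18922 and 27843 in knockouts and between 15944 and 25418 in controls. By single genes, against 50.0% of all genes in either direction, the knockout mean was higher for 9 of the 9 endothelial markers tested (median log2 difference 0.44), 10 of 10 fibroblast and matrix markers (1.22), 6 of 7 neural and Schwann markers (0.91), 6 of 8 leukocyte markers (0.41) and 4 of 8 duct markers (0.04), and it was lower for 16 of 16 acinar markers (-1.08). For the endocrine markers the knockout mean was higher for 5 of the 5 tested, with a median log2 difference of 0.13. Their mean log2 difference was 0.47, 0.35 and -0.23 in the pairs numbered 1, 2 and 3. The mean log2 difference of the acinar markers was 0.08, 0.25 and -3.39 in the pairs numbered 1, 2 and 3. The lower acinar knockout means thus rest mainly on the pair numbered 3. That pair also had the largest mean log2 difference for fibroblast and matrix markers, with 1.01, 0.13 and 2.2 in the 3 pairs. The same held for neural and Schwann markers (0.22, 0.71 and 1.76) and endothelial markers (0.44, 0.23 and 0.74), but not for leukocyte markers (0.26, 0.49 and 0.32). No measured marker was at 0, and the part of these cell types in the differences was not tested.

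Among other transcription factors of islet cells, 25 of 32 listed genes were measured and 21 were bright enough to test. None of the 21 passed in limma (0 at an unadjusted p under 0.05, and with the pair number as a block 2, Hhex and Mlxipl, against 5.03% of all genes), 11 were lower and 10 higher in the knockout, and their median log2 difference was -0.07. Mafa was not analysed here. The delta-cell factor Hhex differed by 0.76 (SE 0.37), with 1302, 2404 and 2589 on knockout arrays and 1171, 1686 and 849.5 on control arrays. Hnf4a, a nuclear receptor, differed by -0.58 (SE 0.30), the alpha-cell factor Irx1 by 0.49 (SE 0.30), and Mlxipl, which encodes the glucose-responsive factor ChREBP, by -0.63 (SE 0.39). Sox9, a factor of progenitor and duct cells, had 118.6, 140.2 and 132.0 on knockout arrays and 20.88, 64.27 and 99.72 on control arrays, which did not overlap, and differed by 1.35 (SE 0.70). The Sox9 signal exceeded the array median on the 3 knockout arrays and on no control array, so the gene entered the test through the group where it was higher. Its separation and the size of its difference are given as a description of dim signal. The duct marker Krt19, a keratin named after its values were seen, had 222.9, 417.9 and 283.1 on knockout arrays and 136.5, 192.7 and 13.01 on control arrays. These did not overlap either (log2 difference 2.09, SE 0.91, limma adjusted p 0.9998). The size of that difference rests mainly on the dim control 3, with 0.71, 1.12 and 4.44 in the 3 pairs. The keratins Krt7 and Krt18 had lower knockout means, with log2 differences of -0.22 and -0.14. Of the 8 duct markers tested, 4 had a lower knockout mean, and the median of the list was 0.04. The part of duct markers in the Sox9 values was not tested.

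All 21 listed paralogues of the 9 genes were measured, but 10 were bright enough to test. Of these 0 passed in limma (0 at an unadjusted p under 0.05), with 5 lower, 5 higher and a median of 0.00. The paralogue of lowest p was Nkx2-3, with 102.3, 225.8 and 47.24 on knockout arrays and 190.7, 232.1 and 206.1 on control arrays, a log2 difference of -1.02 (SE 0.57). Isl2 followed with -0.83 (SE 0.60), Rfx1 with 0.29 (SE 0.35), Neurod2 with 0.49 (SE 0.86) and Rfx5 with 0.21 (SE 0.38). Foxa1, Nkx6-2 and Insm2, close relatives of the genes described above, were among the 11 too dim to test.

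Transcripts of proteins that bind the 9 factors or modify their action were measured for 35 of 37 listed genes, of which 34 were tested. Here 0 passed the adjusted threshold in limma and 2 had an unadjusted p under 0.05, against 2.58% of all genes. With the pair number as a block there were 5 of 34, namely Id3, Id4, Tcf4, Tle4 and Id1, against 5.03% of all genes, with adjusted p between 0.8811 and 0.9646, of which Tcf4 was named after its values were seen. The 2 without the block were Id3 and Id1, whose products lack a DNA-binding region and hold E proteins away from partners such as Neurod1. Id3 had 361.6, 456.9 and 402.9 on knockout arrays, against 243.5, 230.7 and 193.0 on control arrays, a log2 difference of 0.87 (SE 0.29, adjusted p 0.9998). Id1 had 314.1, 297.0 and 234.9 on knockout arrays, against 130.1, 158.0 and 186.8 on control arrays, a log2 difference of 0.84 (SE 0.34, adjusted p 0.9998). For both genes every knockout value exceeded every control value, which held for 2 of the 34 genes in this direction and for 3.98% of all genes. Tle4, a co-repressor, differed by 0.72 (SE 0.34), Id4 by 0.95 (SE 0.50) and the homeodomain cofactor Pknox1 by -0.53 (SE 0.34). The list as a whole had a median of 0.11, with 14 genes lower and 20 higher.

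Genes known to be activated or repressed by the 9 factors were measured for 32 of 36 listed, and 31 were tested. None passed in limma (0 at an unadjusted p under 0.05), 14 were lower and 17 higher in the knockout, and the median was 0.04. That median was -0.098 without knockout 1, -0.103 without knockout 2 and -0.066 without control 2, so its sign rests on single arrays. With the pair number as a block, 2 of the 31, Ucn3 and Trpm5, had an unadjusted limma p under 0.05, against 5.03% of all genes, with adjusted p of 0.7263 and 0.9196. Ucn3, a peptide of mature beta cells, had 3913, 1534 and 2301 on knockout arrays, against 7212, 3699 and 3359 on control arrays, a log2 difference of -0.90 (SE 0.41). Glp1r, the incretin receptor, had 104.0, 185.0 and 130.9 on knockout arrays, against 272.9, 267.2 and 195.1 on control arrays. It was the 1 of 31 genes whose knockout values all lay below the controls, a share near the 2.77% of all genes. The Glp1r signal was dim, and on knockout 1 it lay below the array median of 111.5. The channel gene Trpm5 differed by -0.84 (SE 0.43). The knockout was lower in all 3 pairs for 4 of the 31 genes, namely Ucn3, Glp1r, Trpm5 and the potassium channel gene Kcnj11 (log2 difference -0.41, named after its values were seen), a share of 12.9%, near the 11.3% of all genes. Syt4, a synaptotagmin, differed by -0.48 (SE 0.29), and Rgs4, a regulator of G-protein signalling, by 0.87 (SE 0.52). Ins2, the insulin gene read here through a probe set that can bind related transcripts, had 31480, 28890 and 11540 on knockout arrays and 14810, 17270 and 18230 on control arrays, so knockout 3 was the lowest array and the other two knockouts the highest.

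**Figure D4:**
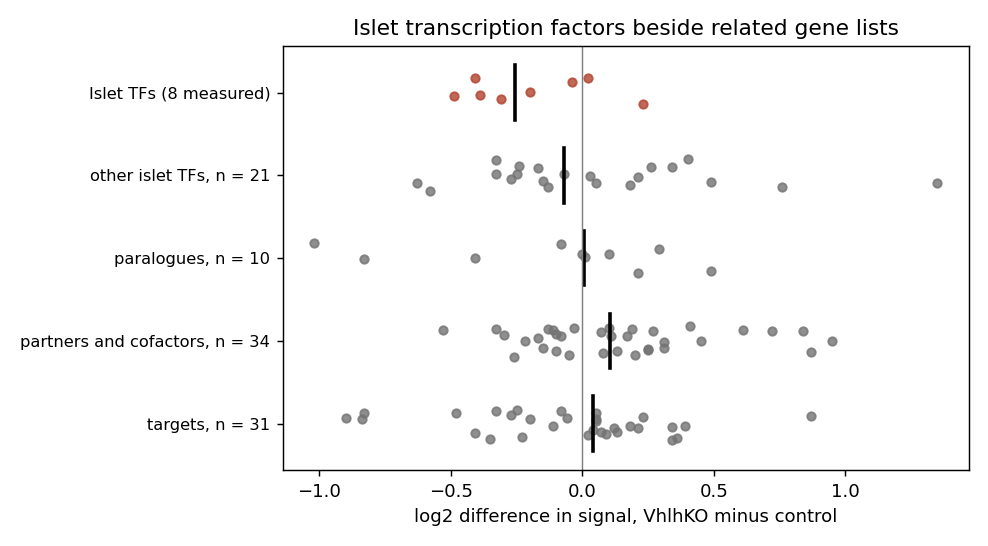
Log2 difference in signal, Vhlh knockout minus control (horizontal axis), of each tested gene in 5 gene lists (rows), with black bars at the medians. The 8 islet transcription factors run from -0.49 to 0.23 with a median of -0.26, and the medians of the other lists lie between -0.07 and 0.11.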

How the data were processed

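The authors deposited 1 MAS5 signal intensity per probe set and array, in linear units, computed with GCOS 1.4 and MAS5 according to the submitters' processing notes. All 6 arrays share a 2% trimmed mean of 500.003, which reflects a global scaling. Array medians were 101.9 to 122.7 signal units, and precision is limited by the number of arrays.

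Of 45101 probe sets, 64 controls were left out and 34945 had exactly 1 symbol in the platform annotation, checked through Entrez identifiers against RefSeq (GRCm38.p6). Each gene was read from its brightest probe set by mean log2 signal, avoiding names ending in _x_at where another existed. Genes exceeding the array median on 3 or more of 6 arrays were tested, 11609 in all. Knockout minus control was fitted on log2 signal by limma 3.58.1 in R 4.3.3 (eBayes with intensity trend), with Benjamini-Hochberg adjustment over all genes. The method was tested on simulated data.

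Deviations from group means correlated within same-numbered pairs at 0.15, 0.42 and 0.43, each over 0.1, so the numbers, which share age and recorded sex, were taken to pair the samples. Knockout 2 with control 1 also reached 0.14. The genes and lists were chosen with earlier results of these data known. All probe sets of the 8 genes were named, and in other lists the 5 genes of lowest p, with Ins2; the 5 most similar profiles were taken by Pearson correlation. Pax4, Myt1 and Mafa each stand on 2 lists.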

Additional observations from a re-analysis of the deposited data

How the results depend on the processing

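With 17 alternatives, the count of the 8 genes past the threshold stayed at 0, and so did the counts in the 4 other lists. All 17 kept the sign of Pdx1 (-0.36 to -0.07), Neurod1 (-0.50 to -0.32), Pax6 (-0.65 to -0.10), Foxa2 (-0.82 to -0.11) and Insm1 (-0.71 to -0.28). The sign of 3 genes turned. Leaving out 1 array at a time gave -0.50 to 0.29 for Nkx6-1, -0.12 to 0.52 for Nkx2-2 and -0.29 to 0.14 for Isl1; Nkx6-1 was at -0.125 with array weights, and Isl1 at 0.032 with both arrays numbered 3 left out, an alternative chosen after seeing the data. The cause was not tested. The number of genes with a lower knockout mean was 5 to 8 when 1 array was left out, 5 without both arrays numbered 3, and 10 of 14 with every probe set on its own, where more features are counted. The median log2 difference of the 8 genes was -0.376 to -0.090 when 1 array was left out. The median of the other islet factors was -0.077 to 0.219 when 1 array was left out, and that of the partners was -0.068 when a gene's probe sets were averaged. The targets' median was -0.103 to 0.090 when 1 array was left out, -0.049 with quantile normalization and -0.022 with the acinar covariate. The paralogues' median was -0.098 to 0.021 when 1 array was left out, so the medians of these 4 lists have no stable sign. Over all genes, 2 passed; the count was 6 with the replicate block, 4 with every probe set on its own, 0 to 5 when 1 array was left out and 0 without both arrays numbered 3. The replicate block changed no call among the 8 genes. Background correction and scan batch were not run, since scanner files were not used here.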
